A study of Homo sapiens with 3 samples.

Results

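The luminal transcription factor genes ESR1, PGR, GATA3, FOXA1, XBP1, SPDEF, ELF3, TFAP2A and GRHL2 were examined for peaks of the AP-1 proteins Fra-1 and Fra-2 in the cell line MDA-MB-231. The 9 genes were chosen by name, and a peak was assigned to a gene when its centre lay in the gene body or within 100 kb of any annotated transcription start site (TSS). By this rule 10 peaks of the Fra-1 list (9998 in all) and 18 peaks of the Fra-2 list (13003 in all) belonged to them. They formed 19 separate sites, of which 9 were shared between the lists, 1 was in the Fra-1 list only and 9 were in the Fra-2 list only. A peak was called shared when it had at least 1 bp in common with a peak of the other list.

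MDA-MB-231 is an established breast cancer cell line, classed as triple negative and basal B, grown here without any stated treatment in medium with 10% serum. Chromatin was immunoprecipitated with an antibody against Fra-1 (group Fra-1 ChIP) or against Fra-2 (group Fra-2 ChIP), and an input DNA sample without antibody was not analysed here. The labels mention 2 independent replicates of each, while 1 peak list per antibody was analysed, so no value has a spread between replicates and no test between the antibodies was possible. The lists give no height or score and the read depth behind them is unknown. Intervals are exact 95% binomial (Clopper-Pearson) intervals, which cover counting error only and treat peaks as independent.

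Luminal cells line the lumen of the mammary ducts, and their identity rests on a network of transcription factors in which the oestrogen receptor ESR1, the pioneer factor FOXA1 and the zinc finger factor GATA3 bind many of the same enhancers. PGR, the progesterone receptor, is a classical oestrogen target, and XBP1 is a leucine zipper factor of the secretory stress response. SPDEF and ELF3 are epithelial ETS factors, TFAP2A is an AP-2 factor of the developing epidermis and mammary gland, and GRHL2 is a grainyhead factor that maintains epithelial junction genes. Basal B lines such as MDA-MB-231 are known for losing much of this programme. The genes FOSL1 and FOSL2 encode Fra-1 and Fra-2, which pair with Jun proteins to form AP-1, a factor that binds the element TGACTCA or its other strand TGAGTCA. Expression was not measured in these data, so a peak near a gene says nothing about whether the gene is active.

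Sequences of 6 of the bound sites are printed first because they show which peaks hold an AP-1 element: for 6 of the genes, the shared site nearest to a TSS or, where a gene had none, its nearest unshared site. They are read from GRCh37 on the plus strand, over the union of the overlapping peaks of both lists, with AP-1 elements in capitals. The end given here is the last base of the site, 1 base before the end that the lists give.
ESR1, shared, chr6:152416351-152416650: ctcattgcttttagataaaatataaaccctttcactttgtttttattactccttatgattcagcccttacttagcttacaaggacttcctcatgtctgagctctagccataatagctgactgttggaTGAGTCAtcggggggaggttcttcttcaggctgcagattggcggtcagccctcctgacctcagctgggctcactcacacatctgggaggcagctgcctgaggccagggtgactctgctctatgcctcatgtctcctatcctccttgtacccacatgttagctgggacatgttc
GATA3, shared, chr10:8173301-8173550: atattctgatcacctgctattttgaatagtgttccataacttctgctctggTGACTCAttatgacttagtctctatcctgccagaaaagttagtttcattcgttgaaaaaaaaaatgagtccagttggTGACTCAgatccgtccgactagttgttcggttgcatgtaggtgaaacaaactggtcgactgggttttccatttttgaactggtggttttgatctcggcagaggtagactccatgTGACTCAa
ELF3, shared, chr1:201998301-201998600: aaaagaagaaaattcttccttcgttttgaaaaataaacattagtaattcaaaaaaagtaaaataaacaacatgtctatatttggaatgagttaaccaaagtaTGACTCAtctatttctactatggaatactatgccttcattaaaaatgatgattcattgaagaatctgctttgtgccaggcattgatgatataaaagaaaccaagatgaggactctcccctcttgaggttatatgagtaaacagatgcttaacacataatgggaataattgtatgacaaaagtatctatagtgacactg
TFAP2A, shared, chr6:10419201-10419400: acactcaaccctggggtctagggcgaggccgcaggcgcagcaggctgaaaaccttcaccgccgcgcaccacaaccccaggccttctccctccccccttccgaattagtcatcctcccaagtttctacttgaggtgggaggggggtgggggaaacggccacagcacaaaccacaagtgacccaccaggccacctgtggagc
SPDEF, Fra-2 only, chr6:34528501-34528650: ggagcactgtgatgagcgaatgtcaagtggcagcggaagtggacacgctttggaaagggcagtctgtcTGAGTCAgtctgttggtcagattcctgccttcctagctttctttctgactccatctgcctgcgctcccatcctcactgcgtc
XBP1, Fra-2 only, chr22:29137651-29137750: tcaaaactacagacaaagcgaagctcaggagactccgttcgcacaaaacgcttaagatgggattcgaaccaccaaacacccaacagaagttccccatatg
The site near GATA3 holds 3 elements and those near ESR1, ELF3 and SPDEF hold 1 each. No element lies in the sites near TFAP2A and XBP1, although an element begins at the last bases of the XBP1 site and runs past its end.

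Of the 9 genes, 7 had at least 1 peak, and PGR and FOXA1 had none in either list. Fra-1 peaks were near 5 of the 9 genes (ESR1, GATA3, ELF3, TFAP2A and GRHL2), where 45.3% of 20098 protein-coding genes had one by the same rule. Fra-2 peaks were near 7 of 9, the same 5 plus XBP1 and SPDEF, against a background of 58.6%. No test was run on these counts, which cover only 9 genes, and they are read against the background alone. Within 10 kb of a TSS or in the gene body, a Fra-1 peak was found for 4 members (background 16.3%) and a Fra-2 peak for 4 (23.3%). For Fra-1, ESR1, GATA3 and GRHL2 counted only through the gene body, the nearest peaks being 151, 11.4 and 24.2 kb from a TSS. For Fra-2 the same was true of ESR1 and GRHL2 (142 and 24.2 kb). This background was not matched for gene length. A member was the gene with the nearest protein-coding TSS for a Fra-1 peak in 4 cases (background 19%) and for a Fra-2 peak in 5 (25%). Peaks of both kinds were in reach of 5 members (background 42.7%), Fra-2 peaks without Fra-1 peaks of 2 (15.9%), Fra-1 peaks without Fra-2 peaks of 0 (2.63%) and neither of 2 (38.8%). The median was 1 Fra-1 peak and 2 Fra-2 peaks per member, against 0 and 1 over all protein-coding genes.

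**Figure D1:**
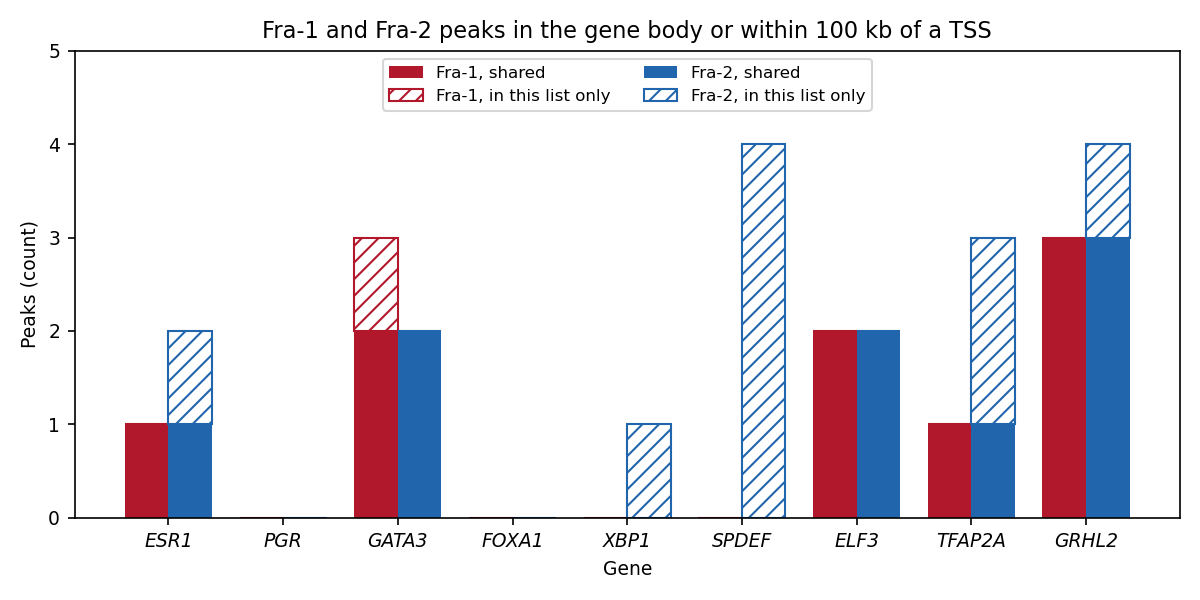
Number of Fra-1 (red) and Fra-2 (blue) peaks in the body or within 100 kb of a TSS of each gene, with shared peaks filled and peaks of a single list hatched. GRHL2 has 3 Fra-1 and 4 Fra-2 peaks, SPDEF has 4 Fra-2 peaks and no Fra-1 peak, and PGR and FOXA1 have none.

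Among the hormone receptors, ESR1 had the longest window and its peaks lay far from its promoters. The gene (chromosome 6, 151977826 to 152450754, plus strand, hg19) has a window of 573 kb, which held 1 Fra-1 and 2 Fra-2 peaks. Both Fra-2 peaks lay towards the far end of the gene, from 152406851 to 152407001 in intron 6 and from 152416351 to 152416651 in intron 7 of the 7 introns of the canonical transcript. The Fra-1 peak, from 152416351 to 152416601, overlapped the second of these. They were 142 to 151 kb from the nearest ESR1 TSS, and the nearest protein-coding TSS was that of SYNE1, which encodes a nuclear envelope protein, at 52.4 to 62.0 kb. No peak lay within 100 kb of an ESR1 promoter. Of 246 other genes with a window within 10% of that length, 65.4% had a Fra-1 peak and 72.8% a Fra-2 peak, with medians of 1 and 2 peaks, the same as for ESR1.

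PGR (chromosome 11, 100900355 to 101000544, minus strand) had no peak in a window of 278 kb. The nearest Fra-1 peak was 301 kb from a TSS of the gene and the nearest Fra-2 peak 125 kb. Its window was not short of AP-1 elements, with 57 copies, or 205 per Mb, against 161 per Mb of nuclear sequence. None of these 57 copies lay in a peak.

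The pioneer factor gene FOXA1 (chromosome 14, 38058757 to 38065264, minus strand) stood farthest from any peak among the members. The nearest Fra-1 peak was 503 kb from a TSS, farther than at all but 13.3% of protein-coding genes, and the nearest Fra-2 peak 472 kb (9.29%). The window held 34 AP-1 elements, 168 per Mb, and none lay in a peak. The shares over all nuclear copies were 1.56% in Fra-1 peaks and 2.27% in Fra-2 peaks.

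GATA3 (chromosome 10, 8087341 to 8117161, plus strand) was reached by 3 Fra-1 and 2 Fra-2 peaks and was the only member with a peak found in the Fra-1 list alone. That peak, from 8111701 to 8111901, lay in the last of 5 introns, 11.4 kb from a TSS, and had no AP-1 element within 100 bp of its centre. Both other sites were intergenic, beyond the end of the gene, and were shared. The nearer, from 8173301 to 8173551 in the Fra-1 list and to 8173501 in the Fra-2 list, was 73 kb from a TSS. The farther, from 8180551 to 8180701 in both lists, was 80.3 kb away and held 2 elements side by side. GATA3 is the nearest protein-coding TSS to all 3 sites. More Fra-1 peaks were counted at only 6.18% of protein-coding genes.

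The leucine zipper gene XBP1 (chromosome 22, 29190543 to 29196585, minus strand) had a single Fra-2 peak, 100 bp wide, from 29137651 to 29137751. It lay 55.3 kb from a TSS of XBP1 but 70 bp from a TSS of CHEK2, which encodes a DNA damage checkpoint kinase, so it is a promoter peak of that gene. The nearest Fra-1 peak was 231 kb from XBP1.

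The ETS factor genes differed in which list reached them. SPDEF (chromosome 6, 34505579 to 34524110, minus strand) had 4 Fra-2 peaks and no Fra-1 peak, the nearest Fra-1 peak being 312 kb from its TSS. One Fra-2 peak, from 34528501 to 34528651, lay 4.47 kb upstream of the TSS with an AP-1 element 4 bp from its centre. The other 3 were in introns of the upstream gene ILRUN, at 53.5, 55.0 and 73.9 kb from the SPDEF TSS, and the last was nearer to a TSS of ILRUN. Of all protein-coding genes, 7.23% had more Fra-2 peaks than SPDEF. Fra-2-only peaks of this gene were 100 to 250 bp wide.

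ELF3 (chromosome 1, 201977073 to 201986311, plus strand) had 2 peaks in each list and both sites were shared. They were intergenic, beyond the end of the gene, at 15.5 and 44.6 kb from a TSS, and ELF3 is the nearest protein-coding TSS to both. At the nearer site the Fra-1 peak was 100 bp wide and lay within the Fra-2 peak of 300 bp. At the farther site the Fra-1 peak, from 202027401 to 202027551, spanned 150 bp, and the Fra-2 peak, from 202027351 to 202027601, spanned 250 bp.

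TFAP2A (chromosome 6, 10393419 to 10419892, minus strand) was the only member with a peak within 1 kb of one of its TSSs, which 2.74% of protein-coding genes had for Fra-1 and 5.09% for Fra-2. The shared peak ran from 10419251 to 10419401 in the Fra-1 list and from 10419201 to 10419401 in the Fra-2 list. Its centres lay 461 and 486 bp downstream of the nearest TSS of the gene and 4.02 and 3.99 kb upstream of the canonical one. A Fra-2-only peak from 10403951 to 10404151 lay 776 bp downstream of an internal TSS, in intron 4 of the 6 introns of the canonical transcript. Neither of these promoter sites had an AP-1 element within 100 bp of its centre. The shared site held 2 RUNX words (TGTGGT) and 1 AP-2 word (GCCNNNGGC), and the internal one held a TEAD, a FOXA and a GATA word. One more peak, in the Fra-2 list only, from 10441501 to 10441701, lay 21.7 kb upstream in an intron of the non-coding gene MIR5689HG and had an AP-1 element 71 bp from its centre.

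GRHL2 (chromosome 8, 102504667 to 102681954, plus strand) had the most peaks of the 9 genes, 3 Fra-1 and 4 Fra-2, and all 3 Fra-1 peaks were shared. The upstream site, from 102463951 to 102464201 in the Fra-1 list and from 102463901 to 102464151 in the Fra-2 list, lay about 40.6 kb before the TSS and held 2 AP-1 elements and 2 GATA words. A Fra-2-only peak of 100 bp followed at 102464401 to 102464501. The shared sites inside the gene were in intron 1, from 102550501 to 102550701 in the Fra-1 list with an AP-1 element at its centre, and in intron 8 of 15, from 102620151 to 102620451 in the Fra-1 list with no element within 100 bp. The intron 8 pair, 300 bp in the Fra-1 and 250 bp in the Fra-2 list, was one of the 2 shared pairs of the 9 in which the Fra-1 peak was wider. Fra-2 peaks were wider in 5 pairs and the widths were equal in 2.

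**Figure D2:**
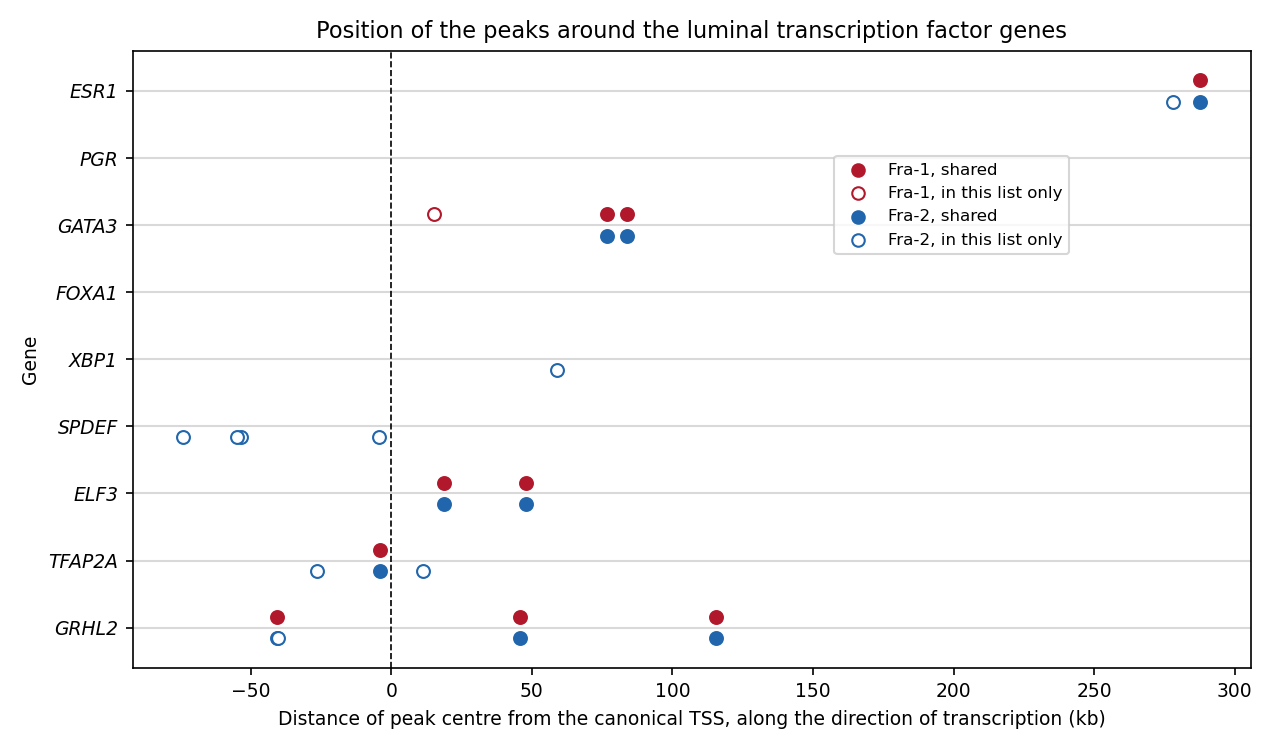
Distance of each peak centre from the canonical TSS of its gene, in kb along the direction of transcription (dashed line, TSS), for Fra-1 (red, upper row of each gene) and Fra-2 (blue, lower row), filled where shared and open where found in a single list. The ESR1 peaks lie beyond 278 kb from the canonical TSS, and 2 Fra-2 peaks near SPDEF and 2 upstream of GRHL2 nearly coincide at this scale.

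Of the 19 sites, 9 were in both lists, and the centres of these overlapping pairs were a median of 25 bp and at most 50 bp apart. Of 10 Fra-1 peaks, 9 were shared (90%, 55.5 to 99.7), against 80.3% of the other 9960 nuclear peaks of that list. Of 18 Fra-2 peaks, 9 were shared (50%, 26.0 to 74.0), against 61.6% of the other 12975. Both intervals contain the value of the other peaks. The median width was 200 bp in both lists, against 150 bp over all nuclear peaks of each. Within the Fra-2 list the shared member peaks had a median width of 250 bp and the unshared ones 150 bp. None of the 28 peaks lay in repeat-like sequence (tandem repeats, surroundings of large assembly gaps, chromosomes Y and M), which took up 15% of the other nuclear Fra-1 peaks and 12.3% of the other Fra-2 peaks. Member peaks at least 200 bp wide made up 60% in the Fra-1 list (26.2 to 87.8) and 61.1% in the Fra-2 list (35.7 to 82.7). These shares were 43.3% and 45.7% over all nuclear peaks, and 49.1% and 50.2% outside repeat-like sequence, all inside the members' intervals. Of the 19 sites, 15 had a member as the nearest protein-coding TSS and 4 had another gene.

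An AP-1 element was found up to 100 bp from the centre in 7 of 10 Fra-1 peaks (70%, 34.8 to 93.3), against 56.7% of the other nuclear peaks of that list. The same held for 13 of 18 Fra-2 peaks (72.2%, 46.5 to 90.3), against 67.5% of the others. No member peak was repeat-like, and among all nuclear peaks outside repeat-like sequence the shares were 65.6% for the Fra-1 list and 75.6% for the Fra-2 list, so the members' Fra-2 share was then the lower one. Both values lie inside the members' intervals. A Fra-1 peak with an element was in reach of 4 of the 9 genes (background 37.4%) and a Fra-2 peak with one in reach of 7 (52.8%). Of these 7, XBP1 counted only through the element that runs past the end of its peak. With elements limited to the peak as called, 12 of 18 Fra-2 peaks (66.7%) had one. By site, 7 of 9 shared and 6 of 9 Fra-2-only sites, that of XBP1 included, had an element up to 100 bp from a centre. The Fra-1-only site had none. In peaks with an element, the median distance from the centre to the nearest one was 5 bp among the 7 Fra-1 peaks and 25 bp among the 13 Fra-2 peaks, while over all nuclear peaks it was 21 bp and 20 bp. Elements near GRHL2 are printed neither here nor above, and the one running past the end of the XBP1 site is also left out. Further elements, printed with 10 bases to each side so that their flanks can be set beside those above, are these (GRCh37, plus strand, element in capitals).
ESR1, Fra-2 only, chr6:152406913-152406939: tgattacaagTGAGTCAtgagtccact
GATA3, shared, chr10:8180597-8180623: ataaagactcTGAGTCAtttccatctg
GATA3, shared, chr10:8180612-8180638: catttccatcTGAGTCAttagggataa
SPDEF, Fra-2 only, chr6:34577590-34577616: agcactagtaTGACTCAcaggaatgta
SPDEF, Fra-2 only, chr6:34579029-34579055: gtccttagtaTGACTCAccagaactta
ELF3, shared, chr1:202027432-202027458: gaggttgcagTGAGTCAtgctcacacc
TFAP2A, Fra-2 only, chr6:10441659-10441685: aaaacgtctgTGACTCAgagccacaag
Each holds the full 7-base element, as TGACTCA in some and TGAGTCA in others, which are the same site read on opposite strands.

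Most copies of the element near these genes lay outside peaks. The windows of the 9 genes held 459 copies, of which Fra-1 peaks covered 11 (2.40%) and Fra-2 peaks 15 (3.27%). Over the 459778 copies on all nuclear chromosomes the shares were 1.56% and 2.27%. Of the 41 copies around GATA3, Fra-1 peaks covered 5 and Fra-2 peaks 4. Of the 42 around SPDEF, Fra-1 peaks covered 0 and Fra-2 peaks 3. ESR1, with 104 copies, had 1 and 2, and the windows of PGR, FOXA1 and XBP1 had none in either list. Copies in neighbouring positions of a single peak are not independent of each other.

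**Figure D3:**
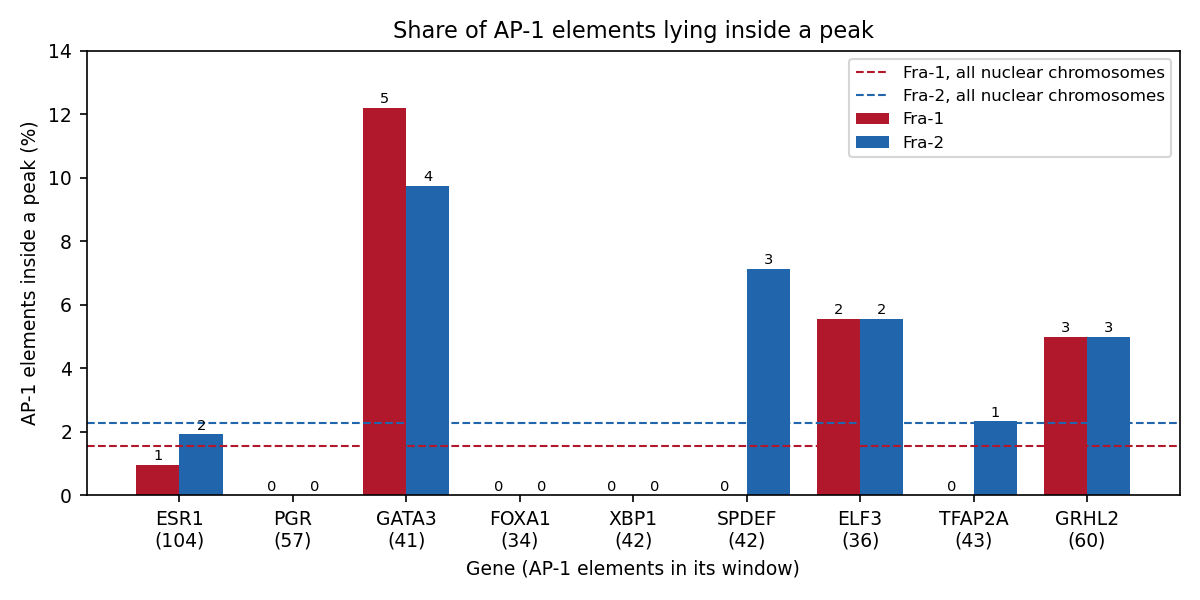
Percent of the AP-1 elements (TGACTCA or TGAGTCA) in the window of each gene that lie inside a Fra-1 (red) or Fra-2 (blue) peak, with the number of such elements above each bar and the number in the window under each gene name. Dashed lines give the share over all nuclear chromosomes, 1.56% for Fra-1 and 2.27% for Fra-2, and GATA3 has the highest bars, with 5 and 4 of 41 elements.

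The 100 bp on each side of every centre were also searched, on either strand, for words of other factors. They can overlap each other and a match is not a bound site. The palindromic oestrogen response element, the grainyhead word AACCGGTT, the ETS word CCGGAAG and the cyclic AMP response element TGACGTCA were in none of the 28 peaks. Over all other nuclear peaks they were also rare, with shares in the Fra-1 list and then the Fra-2 list of 0.0201% and 0.0231% for the oestrogen response element, 0.0803% and 0.100% for the grainyhead word, 1.37% and 1.38% for the ETS word and 0.201% and 0.393% for the cyclic AMP response element. The GATA words AGATAA and TGATAA were in 1 of the 10 Fra-1 peaks (16.6% of the others) and 4 of the 18 Fra-2 peaks (15.1%). FOXA words (TGTTTAC or TATTTAC, or with G before the last letters, TGTTGAC or TATTGAC) were in 1 and 2 (13.1% and 11.6% of the others), and AP-2 words in 1 and 2 (5.46% and 6.33%). TEAD words (GGAATGC or GGAATGT) were in 0 of 10 Fra-1 peaks (0 to 30.8%) and 4 of 18 Fra-2 peaks (22.2%, 6.41 to 47.6), against 15.9% and 13.1%. RUNX words were in 3 and 4, against 17.9% and 17.2%. The intervals of these 9 motifs contained the share of the other peaks in both lists.

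**Figure D4:**
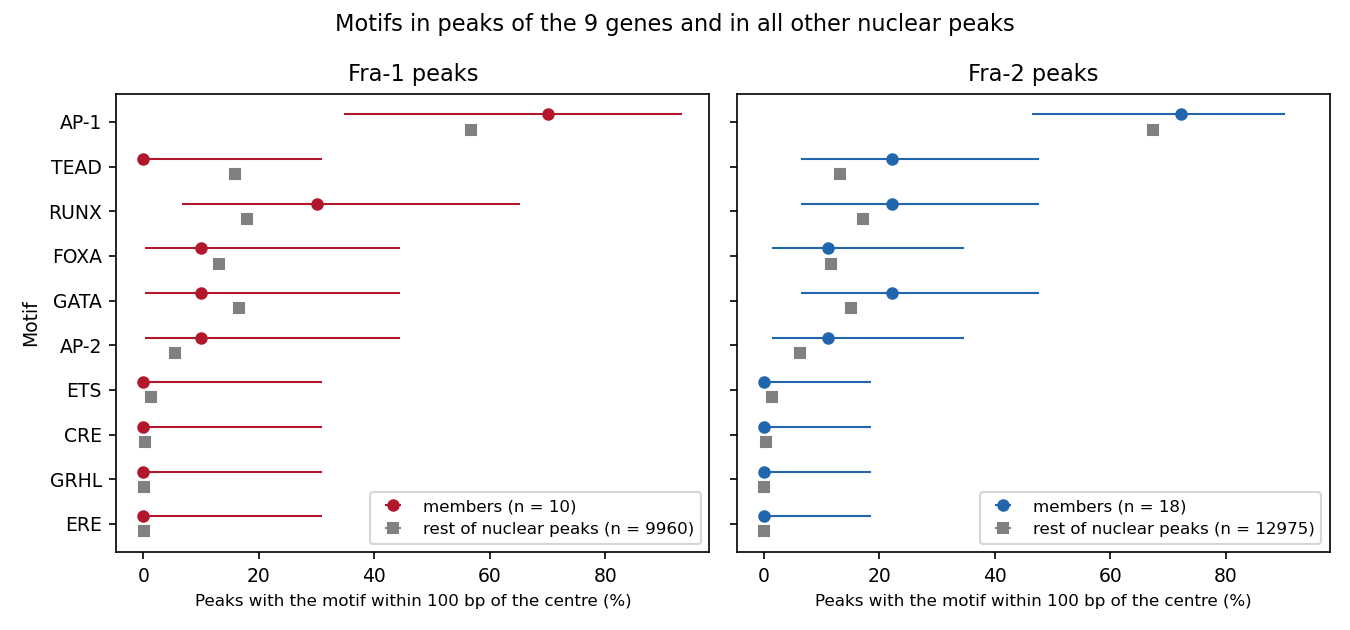
Percent of peaks with each motif within 100 bp of the centre, for the peaks of the 9 genes (coloured circles, 10 Fra-1 and 18 Fra-2) and for the rest of the nuclear peaks (grey squares), with exact 95% binomial intervals. The intervals of the member peaks are wide and each contains the value of the other peaks.

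Other luminal genes were counted by the same rule beside the transcription factors. Of 30 luminal markers and oestrogen receptor targets, 19 had a Fra-1 and 24 a Fra-2 peak in reach, against 45.3% and 58.6% of all protein-coding genes. The medians were 1.5 and 2.5 peaks, against 0 and 1 over all genes. The most peaks were near RAB25, a small GTPase (6 Fra-1 and 10 Fra-2), with other genes nearer to all of them. Next came IGFBP4, a growth factor binding protein (5 and 8), and KRT7, a keratin of simple epithelia (6 and 7). IGFBP4 had the nearest protein-coding TSS for only 0 and 2 of its peaks, and KRT7 for 4 and 3. BCL2, ERBB2, ESRP1, MYB, SLC39A6 and TOX3 had none. Neighbours such as KRT8 and KRT18 or CLDN3 and CLDN4 lie close enough to share peaks.

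Of 25 relatives of the 9 factors, 13 had a Fra-1 and 15 a Fra-2 peak, with a median of 1 of each. The share with a Fra-2 peak is close to the 58.6% of all protein-coding genes, and for Fra-1 that background is 45.3%. CREB3L1, a leucine zipper factor of the secretory pathway, had 6 Fra-1 and 9 Fra-2 peaks. EHF, an epithelial ETS factor, had 5 and 10, all with EHF as the nearest protein-coding TSS. The grainyhead gene GRHL3 had 8 and 6, of which 4 and 2 had GRHL3 as the nearest. Those without a peak in reach included ELF1, GATA1, GATA5, OVOL2, SPIB, TFAP2B and TFAP2E.

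Of 20 mesenchymal and basal transcription factor genes, 16 had a Fra-1 and 15 a Fra-2 peak, set beside the backgrounds of 45.3% and 58.6%. The medians were 2 and 2.5 peaks. The list was not limited to factors named for a mesenchymal state. It included the AP-1 genes FOSL1, FOSL2 and JUN, and also RUNX1, RUNX2, ETS1 and TEAD1. RUNX1 had 12 Fra-1 and 15 Fra-2 peaks in a window of 1375 kb, FOSL2 had 6 and 8, FOSL1 6 and 4, and JUN 5 and 6. SNAI1, a repressor of epithelial genes, had 6 and 7, of which 3 and 4 had SNAI1 as the nearest protein-coding TSS. SNAI2, TCF4, TP63 and TWIST1 had none. Genes with a Fra-2 peak and no Fra-1 peak in reach numbered 2 of the 9 luminal transcription factor genes, 5 of the 30 luminal markers, 4 of the 25 relatives and 0 of these 20, against 15.9% of all protein-coding genes. The first 3 shares lie near that background, and differences between the lists of genes were not tested.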

How the data were processed

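Fra-1 and Fra-2 were mapped by ChIP-seq in MDA-MB-231 cells. Each deposited file is the authors' list of peaks for 1 antibody and holds, in place of counts or scores, other values: positions in bp (chromosome, start, end) in steps of 50 bp. Reads were aligned to hg19 and Bowtie2 was used, as far as the submitters' processing notes name a build and a tool; how peaks were called, at what threshold, with or without the input and on pooled or single replicates is not given in the sources. Peak width is the listed end minus the start. Genes, transcripts and sequence came from GENCODE 44 lifted to GRCh37, the assembly behind hg19, and no nuclear peak passed the end of its chromosome there. The background was 20098 protein-coding genes outside chromosomes Y and M. A peak was called repeat-like if it lay on chromosome Y or M or closer than 1 Mb to an assembly gap of 1 Mb or more, or if over 20% of the words of 10 bases in the 1000 bp on either side of its centre occurred again there. No test was run: each group has 1 list, and members are set beside all genes or all other peaks.

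The members and the gene lists were chosen with earlier results of these data known. All 9 genes are named. Peaks nearest to a TSS, widest peaks, promoter peaks and all peaks of genes with at most 4 are given singly, and of each list the genes with no peak and up to 3 with the most. Assignment and overlap were tested on simulated peaks. The tools were pysam 0.24.0, pandas 2.3.3, numpy 2.4.6, matplotlib 3.10.9 and scipy 1.17.1 under Python 3.11.15. Alternatives covered the reach, the TSS set, the nearest TSS, peak width, repeat-like sequence, list length, merging, the overlap rule and the motif window.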

Additional observations from a re-analysis of the deposited data

How the results depend on the processing

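Of 82 alternative values over 8 results, 76 stayed within 1.5 times the count or within the binomial interval of the share. The intervals of the shares are wide, so a large change can stay inside them. The Fra-1 share with an AP-1 element went from 70% to 40% (2 of 5 peaks) in the gene body or within 10 kb, and counted as inside. With the gene body kept and the reach around a TSS cut to 10 kb, 5 Fra-1 and 7 Fra-2 peaks were assigned in place of 10 and 18. By that setting 4 members had a Fra-2 peak in place of 7. Among peaks at least 200 bp wide, 6 Fra-1 and 11 Fra-2 peaks were left and 3 members had a Fra-1 peak in place of 5. Fewer peaks are taken in by both settings by their construction. With the Fra-2 list, the longer one, shortened to equal length by width, 15 Fra-2 peaks were assigned and 6 members had one. No paired analysis was possible because each antibody has 1 peak list and the labels carry no replicate numbers. The files give no score and the depth is unknown, so a gene without a peak may have sites under the authors' threshold, and with 10 and 18 peaks the shares are known only within wide intervals. Copy number in this aneuploid line was not examined.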

Other observations

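Some sequences invite a second look; these patterns were noticed after the sequences had been seen and are given as values only. The farther shared site of ELF3 carries its AP-1 element behind the letters GAGGTTGCAG, a stretch also found in the Alu consensus, and these 10 letters occur 367659 times on the nuclear chromosomes. They are followed by the element TGAGTCA in 2842 copies, and most often, in 94409 copies, the whole reads GAGGTTGCAGTGAGCCG, which differs from the element in 2 bases. Fra-1 peaks covered 9 of the 2842 copies and so did Fra-2 peaks, or 0.317% in each list, against 1.56% and 2.27% of all copies of the element. The Fra-2-only peak at the CHEK2 promoter, assigned to XBP1, has no complete AP-1 element but holds the B box consensus of transfer RNA genes. That word lay within 100 bp of the centre of 1 Fra-1 and 7 Fra-2 nuclear peaks, or 0.0100% and 0.0539%.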
